A study of Mus musculus with 12 samples.

Results

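The genes described are 6 caspase genes, Casp1, Casp4, Casp2, Casp8, Casp9 and Casp6, and a pair of genes whose products act directly on caspases, Apaf1 and Cflar. They were taken by name, 8 of 12393 genes measured, and each was read from whichever of its probe sets averaged highest across the 12 arrays. Expression was measured on 1 array per mouse in the striatum of C57Bl/6 mice. The 4 groups, with 3 mice each, were TIF-IA mutants made with D1R-Cre at 13 weeks of age, controls at 13 weeks, mutants of this genotype at 9 weeks, and controls at 9 weeks. TIF-IA, the product of Rrn3, recruits RNA polymerase I to its template genes. D1R-Cre acts in cells with the D1 dopamine receptor. The labels do not say whether the controls carried Cre or the unrecombined TIF-IA alleles. The study profiled both ages to look at the mechanisms behind survival and death. The values are log2 signals processed with GCRMA, a difference is always a difference of group means on that log2 scale, and 3 arrays per group limit the precision.

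Caspases are cysteine proteases made as inactive precursors. Initiator caspases are activated on large adaptor complexes, caspase-8 at death receptors, caspase-9 on the apoptosome built by the Apaf1 protein, and caspase-2 on a complex of its own. Executioner caspases such as caspase-6 are cleaved by other caspases and then cut many cell proteins. Inflammatory caspases work differently: caspase-1 is activated on inflammasomes and matures interleukin-1 beta and interleukin-18, and mouse caspase-4, also called caspase-11, senses cytosolic lipopolysaccharide, and both can cause lytic cell death. Cflar encodes c-FLIP, a relative of caspase-8 without protease activity that controls caspase-8 activation. In brain tissue, inflammatory caspases are best known from microglia, the resident macrophages.

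In the RefSeq table of GRCm38.p6, Casp1, Casp4 and another inflammatory caspase gene, Casp12, are neighbouring coding genes on chromosome 9, and Cflar and Casp8 are neighbours on chromosome 1. The other 4 genes lie on chromosomes 6, 4, 3 and 10 (Casp2, Casp9, Casp6 and Apaf1). RefSeq promoter windows, which run from 250 bases before to 50 bases after the start site, were found for all 8 genes. The windows of the neighbouring genes are shown because these genes were high together in the mutants at 13 weeks. Capitals mark a match to AANNGAAA, the core bound by interferon regulatory factors, or to the NF-kB consensus, on either strand. All 4 windows lie on the + strand, Casp1 at chr9:5298267-5298566, Casp4 at chr9:5308599-5308898, Casp8 at chr1:58802252-58802551 and Cflar at chr1:58711241-58711540.
Casp1: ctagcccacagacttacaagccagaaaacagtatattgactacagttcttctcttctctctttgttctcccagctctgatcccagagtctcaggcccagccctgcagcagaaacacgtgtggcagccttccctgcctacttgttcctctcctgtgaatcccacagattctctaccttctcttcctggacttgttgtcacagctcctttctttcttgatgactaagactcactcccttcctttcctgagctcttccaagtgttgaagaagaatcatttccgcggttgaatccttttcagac
Casp4: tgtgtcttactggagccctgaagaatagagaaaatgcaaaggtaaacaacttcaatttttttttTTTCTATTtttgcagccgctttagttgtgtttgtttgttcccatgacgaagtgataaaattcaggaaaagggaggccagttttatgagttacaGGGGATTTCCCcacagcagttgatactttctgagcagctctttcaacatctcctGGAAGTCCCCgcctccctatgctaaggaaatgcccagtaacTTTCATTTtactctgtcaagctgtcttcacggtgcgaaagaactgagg
Casp8: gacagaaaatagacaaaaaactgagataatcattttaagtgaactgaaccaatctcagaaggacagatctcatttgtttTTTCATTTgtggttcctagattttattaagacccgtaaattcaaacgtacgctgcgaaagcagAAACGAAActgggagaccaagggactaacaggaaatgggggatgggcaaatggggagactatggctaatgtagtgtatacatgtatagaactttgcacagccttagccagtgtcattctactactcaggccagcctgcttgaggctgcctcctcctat
Cflar: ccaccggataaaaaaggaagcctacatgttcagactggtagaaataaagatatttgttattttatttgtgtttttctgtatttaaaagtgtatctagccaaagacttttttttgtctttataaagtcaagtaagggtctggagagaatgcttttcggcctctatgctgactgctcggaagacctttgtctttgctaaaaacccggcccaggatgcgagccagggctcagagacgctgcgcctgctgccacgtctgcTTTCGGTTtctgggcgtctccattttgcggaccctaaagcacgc

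This core occurred 2 times in the Casp4 window, on the - strand from positions -186 and 3 relative to the start site, and 2 times in the Casp8 window, from -171 on the - strand and -108 on the + strand. The Cflar window held it once, from position 7 on the - strand, and the windows of Casp1, Casp2, Casp9, Casp6 and Apaf1 had 0 matches. Of 27025 promoter windows, 24.2% hold it on either strand. The 8 windows had 0 matches to the STAT element TTCNNNGAA (8.47% of all windows), searched on both strands. The NF-kB consensus, which 8.18% of all windows hold, was found in the Casp4 window alone of the 8, in one stretch from position -93, where matches on both strands overlap, and in another from -39 on the - strand. No interferon match overlapped an NF-kB match. Narrower forms of both motifs were searched first, and of these only the interferon form matched, in the Cflar window alone. A match or its absence says only which letters this window holds. The windows of Casp1, Casp4 and Casp8 had 3, 5 and 5 CpG dinucleotides and that of Cflar 12, against a median of 7 over all windows. Those of Casp6, Casp2, Casp9 and Apaf1 had 16, 26, 28 and 46. The 3 windows poorest in CpG belong to the 3 genes that were low on all arrays outside the mutants at 13 weeks, as the values that follow show.

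Some facts of the arrays touch every result. Although the labels name medium spiny neurons as the cell type, the tissue is striatum, and oligodendrocyte markers averaged 11.96 to 12.56 on the 12 arrays, so the RNA came from mixed cells. In such bulk samples, fewer cells of a type and less RNA per cell cannot be told apart. Rrn3 read 7.18 to 7.72 in mutants and 7.54 to 8.04 in controls at 13 weeks, which overlap, and 6.90 to 6.96 in mutants and 7.97 to 8.20 in controls at 9 weeks, which do not. Control mouse 3 at 13 weeks stood apart, with a mean absolute deviation of 0.41 from its group mean against 0.12 to 0.26 on the other arrays. Mutant mouse 3 at 9 weeks and control mouse 1 at 13 weeks had high thalamic and pallidal markers, with means of 6.98 and 7.43 and Slc17a6 at 7.99 and 7.08. By Xist and Eif2s3y, all 3 mutants at 13 weeks and 1 mouse in each other group were female. Of the 8 genes, 7 lay above their array's 40th percentile in at least 3 arrays and were tested with limma over 8253 genes, and Casp4, with 2 such arrays, was not. Casp1 and Casp8 passed this filter through the mutants at 13 weeks alone, so that they had to differ.

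At 13 weeks, expression of Casp1, Casp8, Casp6, Cflar, Casp2 and Apaf1 rose in the mutants and that of Casp9 fell, at an adjusted p under 0.05 (limma, Benjamini-Hochberg). At this age 45.4% of all genes passed (23.4% higher, 21.9% lower), so 7 of 7 tested genes is read against that share. Casp1 and Casp8 had to differ, and a filter on the mean over all arrays, which left both out, called 5 of 5. Under that filter 3576 of 8001 genes passed. Of genes tested 54.6% had groups that did not overlap, as 7 of the 8 did. Among these, Casp1, Casp4 and Casp8 were above the percentile in the mutants at 13 weeks alone. The median difference over the 8 genes was 1.74, against 0.00 over all genes tested. At 9 weeks, when 5.00% of genes passed (2.02% higher, 2.98% lower), 0 of the 7 did, 1 at an unadjusted p under 0.05 (Casp9), and the median of the 8 was -0.01, against -0.02 over all genes. The plot of the 8 genes by array shows both ages.

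**Figure D1:**
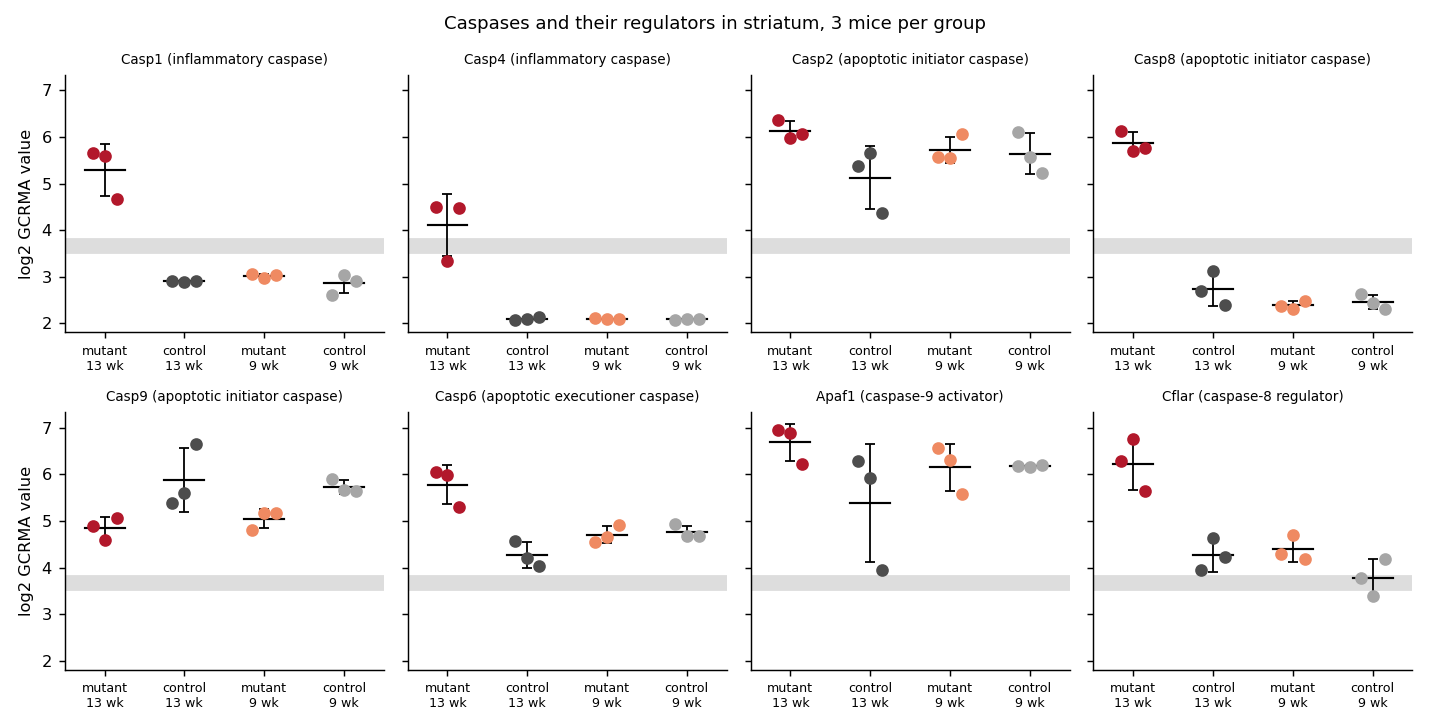
Log2 GCRMA values of the 8 genes (y axis) in the 4 groups (x axis), with 1 point per mouse and a line and bar for the mean and SD of 3 mice. The grey band spans the arrays' 40th percentiles, 3.51 to 3.81. Casp1, Casp4 and Casp8 lie under the band on all 9 arrays outside the mutants at 13 weeks.

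Casp1 was near the low end of the scale everywhere except in the older mutants. At 13 weeks it read 5.65, 5.59 and 4.66 in mutants and 2.91, 2.89 and 2.92 in controls. At 9 weeks it read 3.06, 2.98 and 3.03 in mutants and 2.62, 3.03 and 2.92 in controls. All 3 mutants at 13 weeks lay above every other array, and mutant mouse 3 was the lowest of them. The difference at 13 weeks was 2.39 ± 0.23 (SE, n = 3 per group), 5.25-fold, with an adjusted p of 7.91e-06, and exceeded that of 95.9% of genes tested. No control lay above the percentile, so the fold rests on values near background: against the percentile itself, 3.55 on average in those controls, the difference was 1.75, or 3.36-fold. In the 9-week mice it was 0.17 ± 0.23 (95% interval -0.34 to 0.67), from values under the percentile, where a small difference could not be read.

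Casp4, the lipopolysaccharide sensor, had the same order of groups at lower values. It read 4.49, 3.35 and 4.48 in mutants and 2.07, 2.10 and 2.14 in controls at 13 weeks. The younger mice had 2.12, 2.09 and 2.09 in mutants and 2.08, 2.09 and 2.10 in controls. Every mutant at 13 weeks was again above all other arrays, but here mouse 2 was the lowest, while for Casp1 it was mouse 3. The difference of 2.00 at 13 weeks belongs to a gene under the filter. With no filter on low values limma gave it an adjusted p of 3.53e-04, and against the percentile the difference was 0.55, or 1.47-fold. At 9 weeks the groups differed by 0.01, with all values under the percentile, where a small difference could not be read. The 13 microglia and macrophage markers rose in the same older mutants, with a median difference of 2.80. Of 9 astrocyte markers 8 rose there too, with a median of 1.60. The part of either shift in the rise of Casp4 was not tested.

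Casp8, the initiator caspase of death receptors, had the largest difference of the 8 genes. At 13 weeks it read 6.14, 5.71 and 5.76 in mutants and 2.69, 3.13 and 2.40 in controls. At 9 weeks the values were 2.37, 2.31 and 2.49 in mutants and 2.63, 2.43 and 2.32 in controls. The older mutants were the one group above the percentile, and the other 3 groups overlapped. The rise at 13 weeks was 3.13 ± 0.20, 8.75-fold, with an adjusted p of 2.09e-07, above the difference of 97.8% of genes. Against the percentile it was 2.32, or 4.98-fold. At 9 weeks the difference was -0.07 ± 0.20 (95% interval -0.50 to 0.36), from values under the percentile, where a small difference could not be read.

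Cflar, whose product restrains or promotes caspase-8 according to its form and amount, was measured above the percentile on 11 arrays. It read 6.28, 6.76 and 5.65 in mutants and 3.94, 4.63 and 4.22 in controls at 13 weeks, and 4.30, 4.69 and 4.18 in mutants and 3.78, 3.39 and 4.18 in controls at 9 weeks. The older mutants stood above all other arrays. Their rise was 1.97 ± 0.30, 3.91-fold, with an adjusted p of 2.31e-04. At 9 weeks the difference of 0.61 ± 0.30 did not pass (adjusted p = 0.264) and the groups met at 4.18. Of the 3 other Cflar probe sets, one differed by 1.78 and another by 1.23 at 13 weeks. Each of these was above the percentile on 3 arrays, the mutants at 13 weeks alone, so that they had to differ. The last, under the percentile on all arrays, differed by -0.10. The mean of the 4 probe sets differed by 1.22 (adjusted p = 1.71e-05). Casp8 and its neighbour Cflar therefore both rose at 13 weeks, by unequal amounts.

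Casp6, the executioner caspase, was above the percentile on every array. At 13 weeks it read 6.05, 5.99 and 5.30 in mutants and 4.58, 4.20 and 4.03 in controls. The mice of 9 weeks had 4.55, 4.65 and 4.92 in mutants and 4.93, 4.68 and 4.68 in controls. The lowest older mutant lay above the highest of the other 9 arrays, which overlapped with each other in part. The rise at 13 weeks was 1.51 ± 0.22, 2.85-fold (adjusted p = 1.82e-04), and the difference at 9 weeks was -0.06 ± 0.22.

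Casp9 was the one gene of the 8 that fell. It read 4.90, 4.59 and 5.07 in mutants and 5.38, 5.61 and 6.65 in controls at 13 weeks. In the younger mice it read 4.80, 5.17 and 5.17 in mutants and 5.91, 5.67 and 5.64 in controls. Mutants lay below controls at both ages with no overlap, as 26.8% of genes did at 13 weeks and 20.6% at 9 weeks. The fall was -1.03 ± 0.28 at 13 weeks (adjusted p = 0.0112), and the difference of -0.69 ± 0.28 at 9 weeks did not pass (adjusted p = 0.184). Control mouse 3 carried part of the value at 13 weeks: without it the fall was -0.64 (adjusted p = 0.0127) and the difference at 9 weeks passed (-0.69, adjusted p = 0.0164). Without mutant mouse 2 the difference at 13 weeks did not pass (-0.90, adjusted p = 0.0515). A second Casp9 probe set, under the percentile on all arrays, differed by -0.13 at 13 weeks and 0.07 at 9 weeks, and the mean of both differed by -0.58 at 13 weeks (adjusted p = 0.0111).

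Apaf1, the scaffold on which caspase-9 is activated, moved the other way from Casp9. It read 6.96, 6.88 and 6.23 in mutants and 6.29, 5.93 and 3.95 in controls at 13 weeks. The 9-week values were 6.56, 6.31 and 5.57 in mutants and 6.18, 6.16 and 6.20 in controls. The groups overlapped at both ages, and control mouse 3 at 13 weeks was by far the lowest array. The rise of 1.30 ± 0.49 at 13 weeks passed narrowly (adjusted p = 0.0490) and was 0.58 (adjusted p = 0.120) without that mouse. It failed in 14 of 22 alternative settings, 9 of which left out 1 array: mutant mouse 1 or 2 at 13 weeks, that control, or any mouse at 9 weeks. Another Apaf1 probe set, under the percentile on all arrays, differed by 0.20.

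Casp2, an initiator with its own activating complex, showed the smallest rise. At 13 weeks it read 6.37, 5.99 and 6.07 in mutants and 5.38, 5.65 and 4.37 in controls. At 9 weeks it read 5.58, 5.56 and 6.06 in mutants and 6.10, 5.58 and 5.23 in controls. The groups were apart at 13 weeks and overlapped at 9 weeks. The rise of 1.01 ± 0.32 (adjusted p = 0.0219) was 0.63 without control mouse 3 and did not pass (adjusted p = 0.0584), nor without mutant mouse 1 (0.90, adjusted p = 0.0803). Control mouse 3 was thus the extreme control for Casp2, Casp9 and Apaf1 alike. Without it, Casp1, Casp8, Casp9, Casp6 and Cflar passed at 13 weeks and Casp2 and Apaf1 did not.

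**Figure D2:**
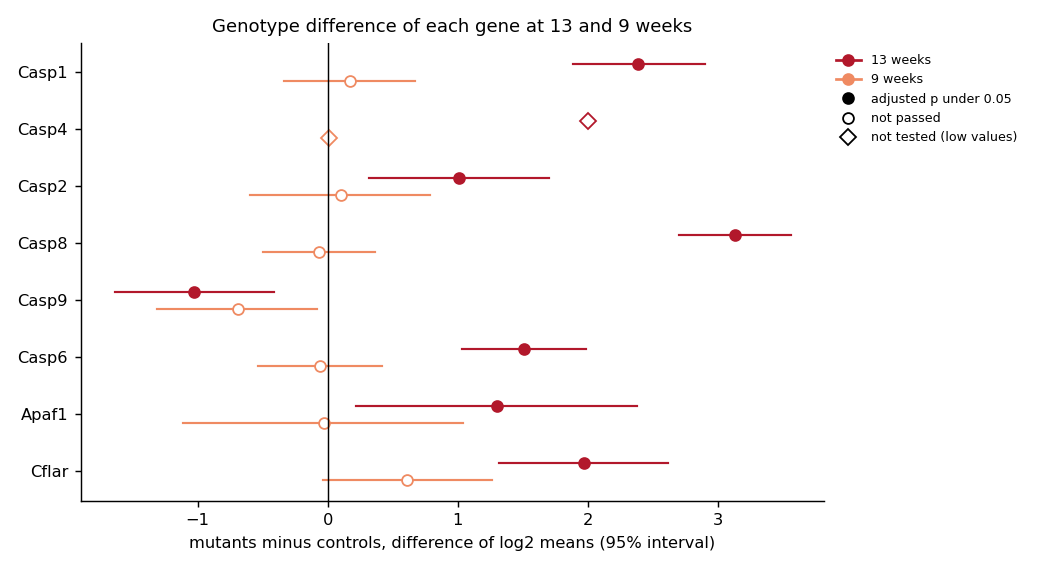
Mutants minus controls, difference of log2 means, for each of the 8 genes at 13 weeks (dark red) and 9 weeks (orange), 3 mice per group, with limma's 95% interval. Filled points passed at an adjusted p under 0.05, open circles did not, and diamonds (Casp4) were under the filter. All differences at 13 weeks but that of Casp9 lie above 0, and the filled points are all at 13 weeks.

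The interaction term tested whether the genotype difference itself differed between ages, which 18.4% of all genes did (12.1% with a larger value at 13 weeks, 6.37% with a smaller). Casp8 (3.20 ± 0.28, adjusted p = 9.09e-06), Casp1 (2.23 ± 0.33, adjusted p = 5.75e-04), Casp6 (1.57 ± 0.31, adjusted p = 0.00467) and Cflar (1.36 ± 0.42, adjusted p = 0.0426) had a larger difference at 13 weeks. Cflar lost this call in 12 of 21 alternative settings, among them those without mutant mouse 1 or 2 or control mouse 1 or 3 at 13 weeks, or without mutant or control mouse 1 or 3 at 9 weeks. Casp8 and Casp1 were tested through the mutants at 13 weeks alone, so that their difference had to be larger there. The term did not pass for Apaf1 (1.33 ± 0.70), Casp2 (0.91 ± 0.45) or Casp9 (-0.33 ± 0.40, 95% interval -1.21 to 0.54). For Casp9 the data thus do not show that its fall grew with age.

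Within the mutants, 13 weeks against 9 weeks, where 32.7% of genes passed (16.1% higher, 16.6% lower), the same 4 genes passed, with Casp8 3.48 ± 0.20, Casp1 2.28 ± 0.23, Cflar 1.84 ± 0.30 and Casp6 1.07 ± 0.22 higher at 13 weeks (highest adjusted p = 0.00289). Casp4 was 2.01 higher, under the filter. Casp9 differed by -0.19 ± 0.28 between mutants of the 2 ages. This comparison shares the older mutants with the comparison at 13 weeks, so that Casp8 and Casp1 had to differ here too. Within the controls, 13 against 9 weeks, 0 of 7 passed limma's test, 1 at an unadjusted p under 0.05 (Casp6, -0.49 ± 0.22, adjusted p = 0.280), and 0.145% of all genes passed.

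The comparison of inflammatory with apoptotic caspases centred each gene on its mean over the 12 arrays and averaged Casp1 with Casp4 and Casp2 with Casp6, Casp8 and Casp9. The inflammatory pair averaged 1.64 ± 0.32 in mutants and -0.56 ± 0.02 in controls at 13 weeks, and -0.50 ± 0.03 in mutants and -0.59 ± 0.11 in controls at 9 weeks (SD, n = 3). The apoptotic 4 averaged 0.84 ± 0.18 in mutants and -0.32 ± 0.14 in controls at 13 weeks, and -0.35 ± 0.17 in mutants and -0.17 ± 0.22 in controls at 9 weeks. The apoptotic mean rested on Casp8: without it, a setting chosen after seeing the data, it was 0.47, 0.22 and 0.17 in the older mutants, and control mouse 1 at 9 weeks, at 0.34, lay above 2 of them. Inflammatory minus apoptotic was 0.97, 0.66 and 0.78 in the 3 older mutants and -0.26, -0.39 and -0.07 in their controls, a difference of 1.04 between genotypes. This size rests on values under the percentile: with those set to the percentile, also chosen after seeing the data, the index was 0.37, 0.29 and 0.18 in the older mutants and -0.03, -0.06 and 0.11 in their controls, a difference of 0.27. In the 9-week mice the index without this change was 0.03, -0.13 and -0.34 in mutants and -0.78, -0.27 and -0.20 in controls, which overlap, a difference of 0.27. With low values set to the percentile it was 0.08, -0.05 and -0.18 in these mutants and -0.44, -0.17 and -0.09 in these controls, which also overlap. No p is given, since the genes were chosen with results known. The classes were not uniform: differences at 13 weeks were 2.00 and 2.39 in the inflammatory pair and ran from -1.03 to 3.13 in the apoptotic 4, whose Casp8 exceeded both inflammatory genes.

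**Figure D3:**
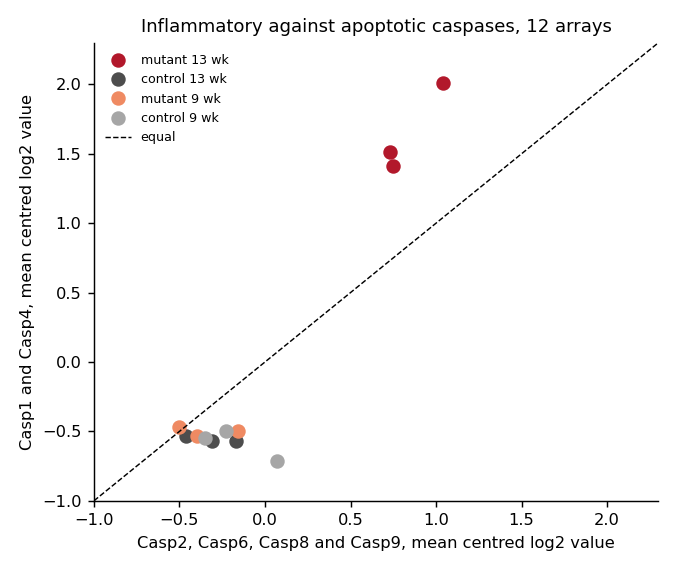
Mean centred log2 value of Casp1 and Casp4 (y axis) against that of Casp2, Casp6, Casp8 and Casp9 (x axis), with 1 point per array and the dashed line where both are equal. The 3 mutants at 13 weeks lie above the line, at 0.73 to 1.04 on the x axis and 1.41 to 2.01 on the y axis, away from the other 9 arrays.

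Among the older mutants themselves, mouse 1 was the lowest of the 3 for 0 of the 8 genes and mice 2 and 3 for 4 each. Mouse 3 was the lowest for Casp1, Casp6, Apaf1 and Cflar, and mouse 2 for Casp4, Casp2, Casp8 and Casp9. The genes nearest to each called gene were found by the root mean square difference of centred log2 values over the 12 arrays. The 3 nearest of 8252 genes fall below the median by construction. Casp1 and Casp8 were under the percentile outside the mutants at 13 weeks, so nearness to them picks genes with a rise of like size. At 13 weeks their 3 nearest genes differed by 2.42 to 2.51 (Casp1) and 3.01 to 3.52 (Casp8). Shared regulation was not tested. Casp1 was nearest to the MHC class II gene H2-Ab1 (0.11), Epsti1 (0.12) and Notch3 (0.12), against a median of 1.13 over 8252 genes. Casp8 was nearest to Clec5a (0.20), a myeloid lectin gene, Parvg (0.24) and the peptidase gene Erap1 (0.26), against 1.52. For Cflar they were Ostf1 (0.25), Elf1 (0.27) and Pon2 (0.28), and for Casp6 Slc35d1 (0.17), Cd2ap (0.18) and Mfsd1 (0.19). The nearest to Casp9 were Wdtc1 (0.13), Gorasp1 (0.15) and Ubald1 (0.16), to Apaf1 Rab5a (0.16), Stam2 (0.17) and Elk4 (0.20), and to Casp2 Nubp2, Gnpda2 and Pex2 (0.21 each). None of the 8 genes was among the 3 nearest of another.

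The other genes of the cell death pathways came from lists of caspases, their regulators and substrates. Of 81 such genes 66 were measured and 44 tested, and at 13 weeks 19 rose and 6 fell, 56.8% of those tested against the 45.4% of all genes. Of those that rose, 5 (Casp12, Birc5, Naip2, Pmaip1 and Zbp1) were above the percentile in the older mutants alone, so that they had to differ, and of the other 39 tested 20 passed (51.3%). The median difference over the 66 measured was 0.12. Against the percentile these 5 genes were higher by 0.58 (Casp12), 1.80 (Birc5), 1.23 (Naip2), 2.68 (Pmaip1) and 2.62 (Zbp1). Casp12, the remaining inflammatory caspase gene of the chromosome 9 cluster, rose by 1.78 ± 0.12 (adjusted p = 3.14e-07) with 0 control arrays above the percentile. At 9 weeks Casp12 differed by -0.02, with all values under the percentile.

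Of 23 inflammasome and pyroptosis genes 16 were measured and 7 tested, and 6 rose and 0 fell at 13 weeks. Counts of this and the following lists are read against all genes tested, of which 23.4% rose and 21.9% fell. Naip2, among the 6, had to differ. The median difference over the 16 measured was 0.71. The genes that rose included the guanylate-binding protein gene Gbp2 (9.85 in mutants and 3.80 in controls, a difference of 6.05). Pycard (9.69 and 5.63, 4.06), which encodes the ASC adaptor that recruits caspase-1, was another. So were Naip2 (2.33), a sensor gene with 0 control arrays above the percentile, and Nek7 (0.98), a partner of the NLRP3 inflammasome. Nlrp3 itself, named after its values were seen, was under the filter. It averaged 2.24 in mutants and 2.18 in controls at 13 weeks, with 0 of these arrays above the percentile. The substrates of caspase-1 were named after their values were seen. Il1b was listed at 2.45 to 2.54 in mutants and 2.52 to 2.61 in controls at 13 weeks, with 0 arrays above the percentile. Il18 averaged 9.85 in mutants and 8.53 in controls at 13 weeks, a rise of 1.32 (adjusted p = 0.0458), with 1 control, mouse 3, at 7.08. Without that mouse, a setting chosen after seeing the data, Il18 differed by 0.59 (adjusted p = 0.0981) and 4 of the 7 genes rose. At 9 weeks 0 of the 7 passed limma's test, 1 at an unadjusted p under 0.05.

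Of 14 death receptor and adaptor genes 13 were measured and 6 tested, and 3 rose at 13 weeks. Of the receptors, Tnfrsf1a rose by 3.13 ± 0.20 (7.82 in mutants and 4.69 in controls) and Fas by 2.85 ± 0.35 (6.76 and 3.91). Tnfrsf21 rose by 0.52 at 13 weeks and differed by -0.63 at 9 weeks (adjusted p = 0.0701, or 0.0325 without control mouse 3 at 13 weeks). Traf2 (0.52, adjusted p = 0.0725) did not pass. At 9 weeks 0 of the 6 passed limma's test, 1 at an unadjusted p under 0.05 (Tnfrsf21).

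Of 10 other activators and inhibitors of caspases 9 were measured and 8 tested, with 1 higher and 2 lower at 13 weeks. Birc5, an inhibitor of apoptosis gene that dividing cells express, rose by 2.20 with 0 control arrays above the percentile. Cradd, an adaptor of caspase-2, fell by 0.59 but differed by -0.45 without control mouse 3 (adjusted p = 0.0504), and Xiap, an inhibitor of caspase-9 and the executioners, fell by 0.44. Xiap was also lower at 9 weeks (-0.59 ± 0.14, adjusted p = 0.0360), the one of the 8 to pass there. Diablo, which counters Xiap, differed by 0.38 at 13 weeks and did not pass (adjusted p = 0.0728).

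Of 17 Bcl2 family genes, which control cytochrome c release upstream of Apaf1, 15 were measured and 11 tested, with 3 higher and 3 lower at 13 weeks. Pmaip1, the gene of the death-promoting protein Noxa, rose by 3.40 ± 0.37, with 0 controls above the percentile, and the survival gene Mcl1 rose by 1.50. The survival gene Bcl2l2 (-0.63) and the death-promoting Hrk (-0.95) were lower. Hrk read 4.37, 4.42 and 4.48 in mutants and 5.70, 5.78 and 4.65 in controls at 13 weeks. It read 4.61 to 4.71 in the 9-week mice of both genotypes, so the size of its difference rests on control mice 1 and 2 at 13 weeks. At 9 weeks Bcl2l1 fell (-0.69, adjusted p = 0.0333) and Bok rose (0.97, adjusted p = 0.0485), and at 13 weeks they differed by -0.21 and -0.25 and did not pass. Bok read 7.30, 7.31 and 8.26 in mutants and 6.60, 6.87 and 6.49 in controls at 9 weeks. The highest of these was mutant mouse 3, which had high thalamic and pallidal markers.

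Of 10 caspase substrate genes, all tested, 4 rose and 1 fell at 13 weeks. Gsn, the actin-severing gelsolin, rose by 2.45 ± 0.45, the kinase gene Rock1 by 1.56 and Gas2 by 1.18, and Dffa, whose product holds the caspase-activated nuclease in check, fell by 1.29 ± 0.28. Without control mouse 3, Gsn differed by 1.74, Rock1 by 0.83, Gas2 by 0.99 and Dffa by -0.97, and all 4 passed. Of 4 necroptosis genes 1 was tested, Zbp1, a nucleic acid sensor gene. It rose by 3.58 ± 0.23, with 0 control arrays above the percentile. At 9 weeks 0 substrate and 0 necroptosis genes passed limma's test, 2 substrate genes at an unadjusted p under 0.05. The plot of the lists shows these genes beside the 8.

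**Figure D4:**
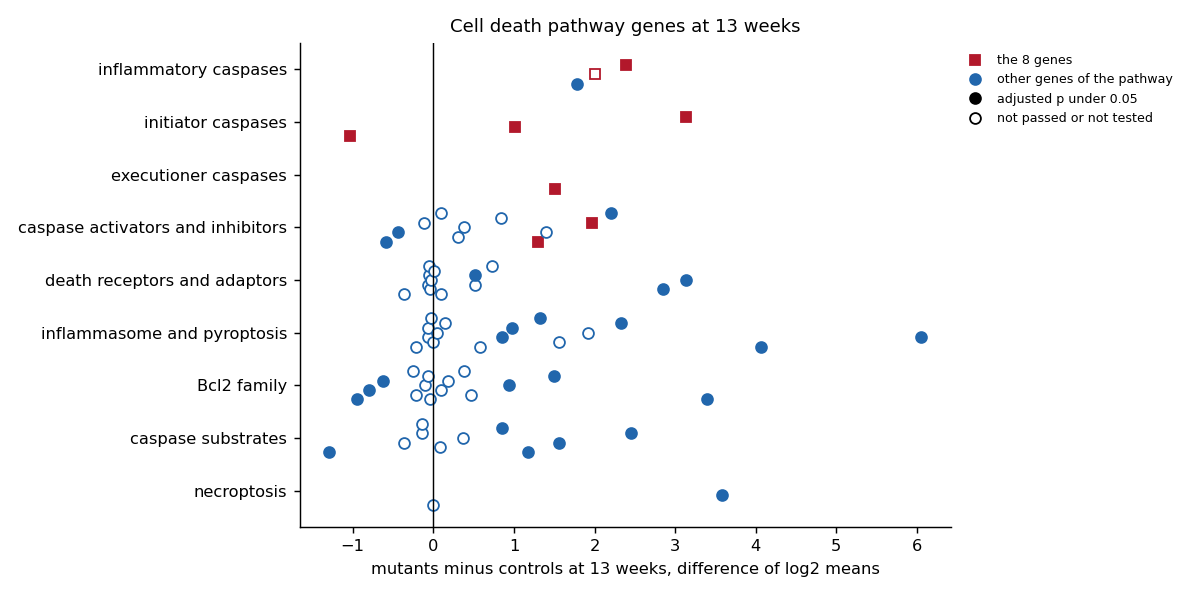
Mutants minus controls at 13 weeks, difference of log2 means (x axis), for measured genes of 9 lists (rows), with squares for the 8 genes and circles for the others. Filled symbols passed at an adjusted p under 0.05. Rises reach 6.05 (Gbp2), while the largest fall is -1.29 (Dffa).

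Markers of cell types moved with these results. The mean level of the 13 microglia and macrophage markers was 11.37 to 11.80 in mutants and 8.58 to 8.96 in controls at 13 weeks, and 8.48 to 9.31 in mutants and 8.46 to 8.63 in controls at 9 weeks. Of 9 astrocyte markers 8 rose (median 1.60), with mean levels of 11.54 to 11.71 in mutants and 9.24 to 9.31 in controls. All 8 medium spiny neuron markers measured fell (median -2.00), as did 7 of 8 pan-neuronal markers (median -0.95). Without control mouse 3, 5 of the 8 pan-neuronal markers passed. The part of these shifts in the differences of the 8 genes was not tested. The 7 T cell and neutrophil markers measured stayed under the percentile on all arrays, with means of 2.32 to 2.45. Of the other lists, 0 of 6 oligodendrocyte, 2 of 3 endothelial, 1 of 1 choroid plexus and 1 of 6 thalamic and pallidal markers tested rose, and without control mouse 3 at 13 weeks 2 oligodendrocyte markers and 0 choroid plexus markers did. With a term for sex in the fit all 7 tested genes passed at 13 weeks. The differences were 3.30 for Casp8, 2.36 for Casp1, 1.88 for Cflar, 1.67 for Casp6, 1.64 for Apaf1, 1.45 for Casp2 and -1.17 for Casp9. The only female control at 13 weeks was mouse 3, whose array stood apart, so this term rests in part on that array. Sex and genotype thus cannot be fully told apart at 13 weeks. Without that mouse Casp2 and Apaf1 did not pass.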

How the data were processed

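Total RNA of 12 mice was hybridised to Affymetrix arrays, 1 per mouse. Per the submitters' processing notes the authors used GCRMA (version not given), and the log2 values they deposited were used unchanged (1.09 to 15.48, array medians 5.29 to 5.52). Of 22690 probe sets, 64 controls, 691 with several gene symbols and 1555 with none were left out, and the probe set with the highest mean represented each of 12393 genes. Genes above their array's 40th percentile in at least 3 arrays were kept, 8253 in all. All arrays were fitted with limma 3.58.1 in R 4.3.3, with 1 coefficient per group, and two-sided p-values were corrected over all kept genes (Benjamini-Hochberg). The labels call the samples biological replicates.

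The 8 genes, 9 pathway lists and 9 marker lists were chosen with earlier results of these data known. Named were the 8 genes, Rrn3, Xist and Eif2s3y, from each pathway list at most 4 other genes with the smallest p at 13 weeks and those that passed at 9 weeks, and the 3 nearest genes of each called gene. The fit was tested on simulated data. GCRMA draws low signals together, which bears on folds from that level. Narrower forms of the interferon and NF-kB motifs were searched first, and of these only the interferon form matched, in the Cflar window alone. Alternatives changed the normalization, filter, probe set rule, weights and arrays.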

Additional observations from a re-analysis of the deposited data

Results flagged for a closer look

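The genotype difference of 4 of the 8 genes was larger at 13 weeks than at 9 weeks by the interaction term (limma, all 12 arrays, n = 3 per group). Of all genes 18.4% passed this term, 12.1% with a larger value at 13 weeks. Casp1 and Casp8 were tested through the mutants at 13 weeks alone, so that their difference had to be larger there. A filter on the mean over all arrays, which left both out, called 2 of 5, and 1361 of 8001 genes. For Casp8 the difference was 3.13 at 13 weeks and -0.07 at 9 weeks, a change of 3.20. For Casp1 it was 2.39 and 0.17, a change of 2.23. For Casp6 it was 1.51 and -0.06, a change of 1.57. For Cflar it was 1.97 and 0.61, a change of 1.36, the one of the 4 whose call was lost in other settings. Casp1 and Casp8 were under the percentile on all arrays at 9 weeks, so that a small difference there could not be read. The 3 mutants at 13 weeks were all female. With a term for sex the changes of Casp8, Casp1 and Casp6 passed as well, while that of Cflar did not (1.27, adjusted p = 0.0763). This term rests in part on control mouse 3, the only female control at 13 weeks, whose array stood apart.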

How the results depend on the processing

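Of the 7 tested genes, Casp1, Casp8, Casp6 and Cflar passed at 13 weeks in every alternative in which they were tested. A filter on the mean over all arrays tested only 5 of the genes, without Casp1 and Casp8, and this gave 2 calls for the interaction and 2 for age in mutants, against 4 each. Over all genes it gave 1361 and 2541 calls of 8001, against 1522 and 2700 of 8253. Fitted to the compared groups alone, 4 genes passed at 13 weeks, against 7, and Casp9 passed at 9 weeks, which made 1. Over all genes this fit gave 2830 calls at 13 weeks, against 3744. Array weights, whose estimation stopped before it converged, gave 2 calls at 9 weeks, 7 for age in mutants and 3 for age in controls. With 1 array left out, 5 to 7 genes passed at 13 weeks, 0 to 1 at 9 weeks, 3 to 4 in the interaction, 4 for age in mutants and 0 for age in controls. Over all genes the calls then ran from 2901 to 3951 at 13 weeks, 1070 to 1950 in the interaction and 1899 to 3834 for age in mutants. The replicate number as a block changed no call of the 8 genes, with 7 passing at 13 weeks, 0 at 9 weeks and 4 in the interaction, and arrays correlated best with the same number of another group in 18 of 36 combinations, with 4 of 18 same-numbered pairs above 0.1 (r from -0.12 to 0.32), and the numbers were not taken to pair the mice. For age in controls the block gave 3 calls over all genes, against 12. Inflammatory minus apoptotic caspases differed by 0.96 to 1.13 at 13 weeks and 0.09 to 0.38 at 9 weeks with 1 array left out. At 13 weeks the difference was 0.27 with low values set to the percentile and 1.70 without Casp8, both chosen after seeing the data. Over all genes, 413 passed at 9 weeks, against 62 to 1361 with 1 array left out (1361 without control mouse 3 at 13 weeks), 3832 with array weights and 1053 in the compared groups alone. Array weights also gave 4302 calls against 1522 in the interaction, 5752 against 2700 for age in mutants and 1926 against 12 for age in controls, where no filter gave 59, the compared groups alone 0 and single arrays left out 0 to 25. The cause of these changes was not tested.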
